A study of Capra hircus with 4 samples.

Results

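Mesothelial cells, the sheet that covers the outside of the pancreas, were followed as a class of single-cell barcodes in a goat pancreas dataset. A barcode was taken as mesothelial when it held at least 3000 unique molecular identifiers (UMIs) and 500 genes and had a UMI of at least 2 of the 4 marker genes MSLN, UPK3B, LRRN4 and BNC1. It also had no UMI of PTPRC or PECAM1, under 3% of its UMIs from INS and from PPY each, and under 5% from the acinar genes PRSS2, CLPS and SYCN together. UPK3B is not a symbol among the listed genes, so 3 of the 4 markers could be read. The rule found 82 barcodes among 17982 with at least 3000 UMIs and 500 genes.

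The pancreas came from 4 female Liuyang black goats, born as twins, of which 2 were 10 days old and 2 were 6 months old, and the labels name no allele, transgene or drug. Each pancreas was digested with collagenase IV, dispase and DNase I, cleared of red cells and dead cells, and captured on the 10x Genomics 3′ v3 chemistry with a target of 8000 cells. All 4 libraries share 1 deposited matrix, in which a number from 1 to 4 at the end of each barcode names the library. No label ties these numbers to an animal or an age, so libraries are given by number, no library is assigned to an age and no test between ages was made.

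The mesothelium is a single layer of flattened cells of mesodermal origin that lines the body cavity and wraps the organs in it. Its cells combine epithelial features, such as keratins, tight junctions and microvilli, with mesenchymal ones, and they make a lubricated surface across which water and solutes pass. In the embryo the mesothelium of several abdominal organs is known as a source of signals and of mesenchymal cells for the tissue below it.

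Mesothelial barcodes came almost entirely from libraries 3 and 4. Library 1 held 0 of 3203 barcodes, which allows a share of up to 0.0937% by the rule of 3 counts of the total (the exact interval ends at 0.115%), and library 2 held 1 of 6618 (0.0151%). Library 3 held 30 of 4832 barcodes, or 0.621% (exact Clopper-Pearson 95% interval 0.419 to 0.885%). Library 4 held 51 of 3329, or 1.53% (1.14 to 2.01%), and its interval lies above that of library 3. That order rests on the need for 2 markers. Exactly 1 marker was seen in 65 further barcodes of library 3 and 11 of library 4 that passed the other limits. Intervals here and below cover counting error only. Digestion, red-cell lysis and capture all act on these shares, and each library is 1 sample.

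**Figure D1:**
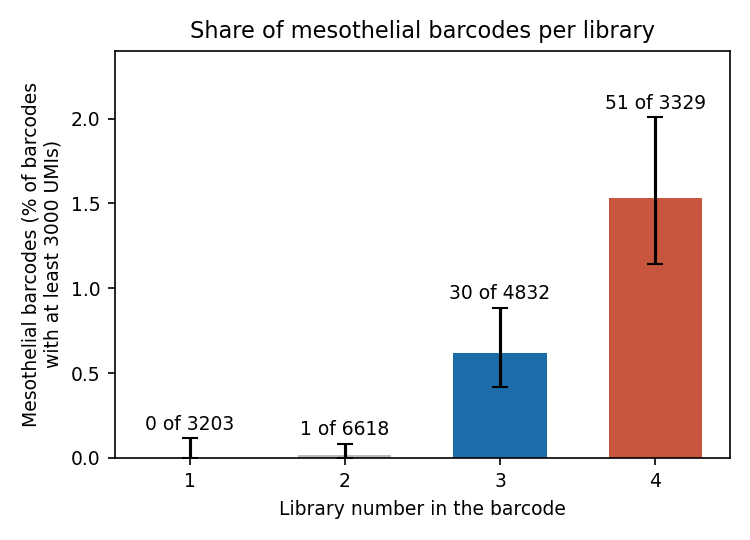
Share of mesothelial barcodes (y axis, percent of barcodes with at least 3000 UMIs) in each of the 4 libraries (x axis); bars are shares, whiskers are exact 95% Clopper-Pearson intervals for counting error, and the counts stand above. The shares of libraries 3 and 4 (0.621% and 1.53%) lie above those of libraries 1 and 2 (0% and 0.0151%).

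The genes of the rule chose the barcodes, so their values are a description only. MSLN, the surface glycoprotein mesothelin, was present in every member. Its lowest, median and highest level over the members were 151, 591 and 1409 CPM (a gene's UMIs scaled to a sum of 1000000 per barcode or class) in library 3 and 29.6, 663 and 1735 CPM in library 4. LRRN4, a leucine-rich repeat membrane protein, had a UMI in 22 of 30 and 31 of 51 members, and BNC1, a zinc finger transcription factor, in 22 of 30 and 46 of 51. In RNA outside cells, read from barcodes of 10 to 100 UMIs, MSLN stood at 0 CPM in library 3 and 1.15 CPM in library 4. After every barcode was thinned to 3000 UMIs, 70.0% of the library 3 members and 86.3% of the library 4 members still had MSLN.

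At the edge of the rule, exactly 1 marker was seen in 23, 45, 65 and 11 barcodes of libraries 1 to 4 that passed the other limits, nearly always MSLN (21, 44, 64 and 10). Just below the UMI minimum, between 1000 and 2999 UMIs, 1 barcode of library 3 (2011 UMIs) and 6 of library 4 (up to 2704 UMIs) had 2 or more markers. The limits on other cell types removed 1 of 31 such barcodes in library 3 and 19 of 70 in library 4. There, 6 had PTPRC, 5 had PECAM1, 9 exceeded the INS limit and 7 the PPY limit. They also removed the only such barcode of library 1, which had PTPRC.

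The members had more UMIs than the barcodes around them, a difference that the rule favours because a deeper barcode shows 2 markers more readily. Their median was 13253.5 UMIs in library 3 (4389 to 57054) and 9725 in library 4 (4611 to 67540), with a median of 3580 and 3293 genes. All barcodes of these libraries had medians of 7231 and 7703 UMIs. Summed over members, the libraries gave 447998 and 851537 UMIs, and the sums set the precision of every level below. No member shares its barcode sequence with a barcode of another library, although 68 of the 17982 barcodes do. The doublet caller Scrublet marked 113 barcodes in library 3, 1 of them a member, and only 2 in library 4 (0.0601%). Whether it missed doublets in library 4 was not tested, and no barcode was removed by it in the main results.

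3 of the 82 members carry markers of another cell type and go against the label. Each has 3 or more UMIs of EPCAM, an epithelial adhesion molecule that the other members practically lack. The single member of library 2 has 9 EPCAM UMIs with 28 of TFF3, 52 of LGALS2 and 85 of APOA1, and none of GPM6A, PRG4 or WT1. The member of library 4 with 67540 UMIs has 34 of EPCAM, 512 of TFF3, 283 of PIGR and 2 of MSLN. In library 3, a member of 20618 UMIs has 5 of EPCAM and 26 of DCN beside 6 of MSLN and 23 of PRG4. Its acinar markers summed to 46852 CPM, against at most 5354 CPM in the other members of library 3. Its COL1A1 (142 UMIs, 6887 CPM) was within the range of those members. Levels below are given over all members unless said otherwise, and every comparison was repeated without these barcodes.

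Without them, markers of immune and red cells were low or at 0 in the 29 members of library 3 and the 50 of library 4, with PTPRC at 0 by the rule. No T or NK, mast, neutrophil, erythroid or adipocyte marker had a UMI in library 3, and macrophage markers summed to 4.68 CPM in library 3 and 12.8 CPM in library 4. The 9 fibroblast markers summed to 14977 and 3300 CPM, against 66478 and 80944 CPM in fibroblast barcodes. The duct markers summed to 7195 and 5203 CPM, nearly all of it KRT19 and SLC4A4, with CFTR and EPCAM at or near 0, and the sum in library 3 was above the 3778 CPM of its duct barcodes. The acinar markers summed to 1111 and 151 CPM, against 2371 and 517 CPM in fibroblast barcodes. With the EPCAM member, the acinar sum of library 3 was 3217 CPM, above that of its fibroblast barcodes. Pericyte or smooth muscle markers summed to 136 and 98.2 CPM and had a UMI in 62.1% and 74% of members. In fibroblast barcodes, chosen without RGS5 and MYH11 of that list, the sums were 83.1 and 30.1 CPM. Blood endothelial markers summed to 14.0 and 128 CPM, against 2.26 and 3.17 CPM in fibroblast barcodes, and had a UMI in 17.2% and 66.0% of members. Over all members, INS made up a median of 0.0698% and 0.0458% of a member's UMIs, below the 0.111% and 0.0641% of fibroblast barcodes. The part of RNA from outside the cells in any single gene was not tested.

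Members were set against fibroblast barcodes of the same library, which passed the same limits, had at least 3 of 6 fibroblast genes (COL1A1, COL1A2, COL3A1, DCN, LUM, PDGFRA) and none of the markers, EPCAM, RGS5 or MYH11. Library 3 had 2107 of these and library 4 had 1032. A gene was called when the log2 ratio of summed levels, each CPM plus 1, was at least 1 (higher) or at most -1 (lower) in both libraries, with at least 20 UMIs in the higher class. Of 6567 genes, 350 (5.33%) were called higher and 1033 (15.7%) lower in the members. The members' sums are much smaller than the fibroblasts', which favours lower calls, so lists are counted over the 3715 genes with at least 20 UMIs expected at the smaller sum. Of these, 350 (9.42%) were higher and 393 (10.6%) lower, and the median log2 ratio of all was 0.19. A gene near 0 in 1 class passes this filter only through the other class, which then sets its direction. With 1 library on each side of a ratio there is no test, and a called gene is one past this fold.

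Most other genes known from mesothelium stood high where they could be measured. A list of mesothelial identity that left out the markers of the rule held 40 genes, of which 32 matched a symbol. Of these, 19 had enough UMIs to be measured, a filter that drops genes low in both classes. Among the 19, 14 were higher and 2 lower, with a median log2 ratio of 3.92. The lists were chosen with earlier results of these data known, so their counts here and below describe the members and are no independent support for the label. GPM6A, a neuronal and mesothelial membrane glycoprotein, had a lowest, median and highest level of 291, 889 and 4035 CPM over the library 3 members and 29.6, 2611 and 4338 CPM over those of library 4. Fibroblast barcodes stood at 2.98 and 7.93 CPM in libraries 3 and 4, log2 ratios of 7.90 and 8.05. Every member of both libraries lay above the fibroblast sum, and the lowest of library 4 is the EPCAM member of 67540 UMIs. PRG4, the lubricating proteoglycan of joint and body cavity surfaces, ran at 444, 1755 and 7479 CPM in library 3 and 0, 3687 and 9334 CPM in library 4, against 9.24 and 225 CPM in fibroblasts. Its ratio was therefore wider in library 3 (7.55) than in library 4 (3.84), where the fibroblasts themselves had more of it.

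The rest of the list included tight junction, polarity and membrane genes. CLDN15, a claudin that forms cation pores, stood at 393 and 505 CPM in libraries 3 and 4 against 1.60 and 0.976 CPM in fibroblasts. CRB2, a Crumbs polarity protein, stood at 149.6 and 206 CPM, with 0.218 CPM in library 3 fibroblasts and no UMI in those of library 4. PODXL, the sialomucin podocalyxin, stood at 229.9 and 176 CPM against 0.145 and 0.122 CPM. UPK1B, a uroplakin, and PDPN, podoplanin, were higher in both libraries, with UPK1B at 196 and 277 CPM against 3.78 and 6.95 and PDPN at 362 and 323 CPM against 18.3 and 25.4. PKHD1L1, a large membrane protein related to fibrocystin, was at 89.3 CPM in library 3 and 451 CPM in library 4, and fibroblasts were at or near 0 (0 and 0.122 CPM). Lower than in fibroblasts were MEDAG, an adipocyte-lineage gene (114 and 116 CPM against 242 and 483), and TCF21, a mesenchymal transcription factor (20.1 and 0 CPM against 73.8 and 69.4). CALB2, calretinin, which is used as a mesothelial stain in other species, had no UMI in any member of either library.

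**Figure D2:**
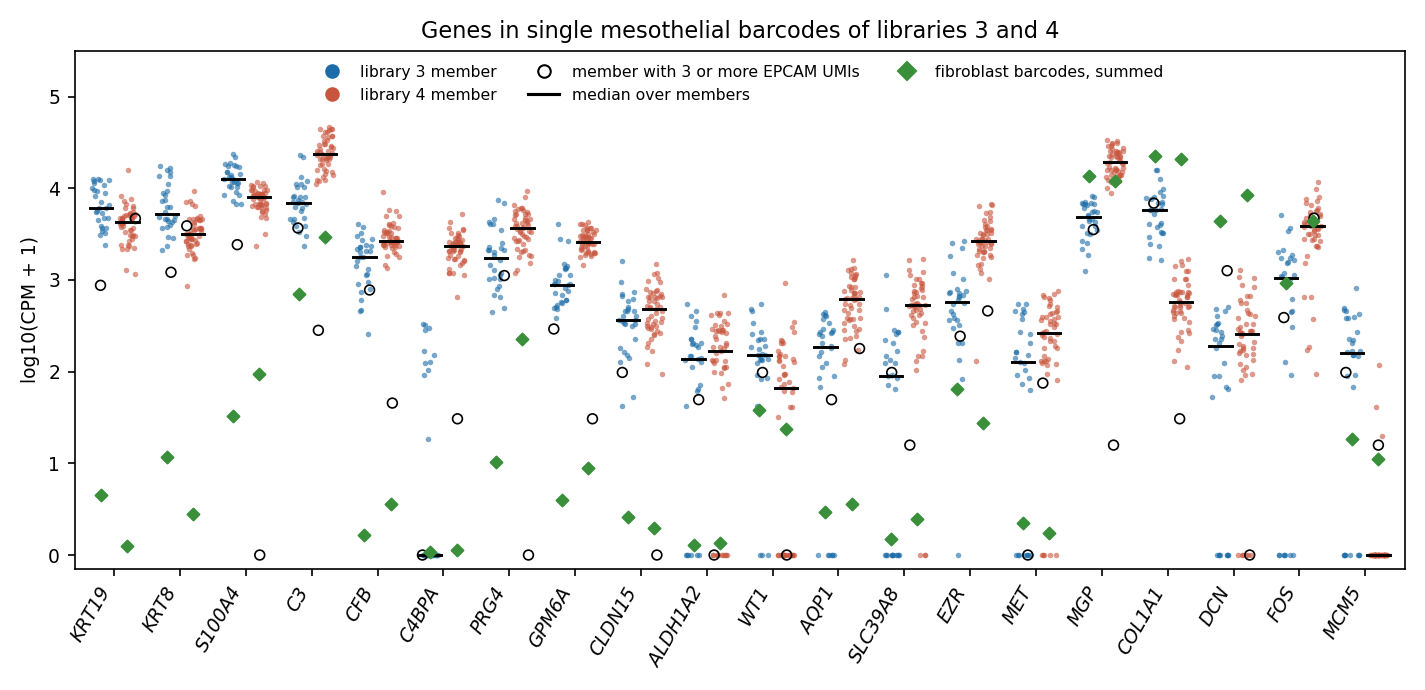
Levels of 20 genes (x axis) as log10(CPM + 1) (y axis) in each of the 30 members of library 3 (blue) and 51 of library 4 (red); black bars are medians over members, diamonds the summed level of fibroblast barcodes of the same library, and open circles the members with 3 or more EPCAM UMIs. KRT19, KRT8, CFB and GPM6A lie far above the fibroblast diamonds in both libraries, whereas COL1A1 and DCN lie below them, and C4BPA and MCM5 differ between the libraries.

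Of the 21 gene lists, keratins and junctions had the highest median ratio of members to fibroblasts. Of 28 matched genes for keratins, junctions and polarity, 14 were measured. Of these 11 were higher and none lower, with a median log2 ratio of 5.60. KRT19, a type I keratin of simple epithelia, had a lowest, median and highest level of 873, 6041 and 12622 CPM in library 3 and 1172, 4312 and 15828 CPM in library 4. The sums were 6692 CPM (exact Poisson 95% interval 6455 to 6936) and 4488 CPM (4347 to 4633). Fibroblast barcodes stood at 3.56 and 0.244 CPM, the latter from 2 UMIs in all 1032 barcodes, and the groups did not overlap in library 4. Its partner KRT8, a type II keratin, ran at 1213, 5208 and 17713 CPM and 849, 3164 and 9406 CPM, with 10.8 and 1.83 CPM in fibroblasts. KRT18 stood at 1038 and 397 CPM, but the EPCAM member gave 53.3% of its UMIs in library 4, and without it the level there was 202 CPM.

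CLDN1, a tight junction claudin, stood at 308 and 206 CPM in libraries 3 and 4 against 6.84 and 4.27 CPM in fibroblasts. DSP, desmoplakin of the desmosome, stood at 263 and 418 CPM against 4.80 and 3.29 CPM. F11R, junctional adhesion molecule A, PARD6B, a polarity protein, and CGN, cingulin of the tight junction, were also called higher. CDH1, E-cadherin, had 31.2 and 130.3 CPM, but only 14 UMIs in library 3, below the minimum of 20 there, so it was not called. All of these except CDH1 had at least 20 UMIs in the members of both libraries.

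Against duct barcodes, the pancreas's own simple epithelium, the picture of keratins and junctions was mixed. Only library 3 had enough of these (226, chosen by EPCAM with at least 2 of 6 duct genes), with 11 in library 4, so the duct values are those of library 3. These barcodes were not pure, with SST, an endocrine hormone gene, at 11511 CPM. Of 7384 genes, 538 (7.29%) were higher and 2191 (29.7%) lower in the members, a split that became 892 higher and 1408 lower when each ratio was centred on the median of all genes. Over the 4318 genes with 20 UMIs expected at the smaller sum, 538 (12.5%) were higher and 903 (20.9%) lower. Of 19 keratin and junction genes, 2 were higher and 7 lower than in duct barcodes. CLDN1 was at 308 CPM against 4.74 CPM and KRT8 at 7167 against 2577. KRT7 was at 53.6 CPM in members and 1015 CPM in duct barcodes, CDH1 at 31.2 and 362, and CLDN7 and CLDN4 had no UMI in the library 3 members against 385 and 211 CPM.

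Of 12 transcription factors of coelom and pancreatic mesoderm, 8 were higher in the members than in duct barcodes and 2 lower. WT1, the Wilms tumour factor, stood at 141 CPM, BNC2 at 100.5, NR2F1 at 67.0, OSR1 at 51.3 and HAND2 at 44.6, all with no UMI in the duct barcodes. The lower ones were MEIS1 (33.5 CPM against 97.6) and MEIS2 (145 against 302). ONECUT1 and HHEX, factors of the endodermal pancreas, had no UMI in the library 3 members and 239.8 and 230.3 CPM in duct barcodes. The same was true of TFF3, a secreted trefoil peptide at 1368 CPM in duct barcodes, and of CXCL17, a mucosal chemokine at 471 CPM.

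Against all other barcodes of the same library, 450 of 7794 genes (5.77%) were higher and 1677 (21.5%) lower in both libraries, or 784 and 1196 when centred on the median of all genes. The make-up of those barcodes differed between the libraries. Over the 3434 genes with 20 UMIs expected at the smaller sum, 450 (13.1%) were higher and 197 (5.74%) lower. Of 18 mesothelial identity genes 16 were higher and none lower, and of 16 keratin and junction genes 11 were higher and none lower. UPK1B was at 196 and 277 CPM in the members of libraries 3 and 4 and 1.25 and 3.53 CPM elsewhere, and PRG4 at 1924 and 3239 CPM against 4.68 and 82.4.

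Against fibroblasts, the same list of transcription factors gave 4 of 11 measured genes higher and 1 lower, with a median log2 ratio of 0.40. KLF5, a Krüppel-like factor of epithelia, was at 91.5 and 239.6 CPM in libraries 3 and 4 against 1.96 and 1.46 CPM in fibroblasts. WT1 ran at 0, 149.6 and 551 CPM over library 3 members and 0, 64.7 and 914 CPM over those of library 4, with log2 ratios of 1.90 and 2.00 to fibroblasts at 37.0 and 22.4 CPM. GATA6, a GATA factor of mesoderm and endoderm, was at 134 and 195 CPM against 26.6 and 30.4 CPM, and BNC2 at 100.5 and 144 against 36.4 and 51.7. GATA5 was at 29.0 and 66.9 CPM against 2.55 and 3.78 CPM, but its 13 UMIs in library 3 fell short of the minimum. WT1 is thus shared in part with the fibroblasts, whereas KLF5 was nearly absent from them.

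Of 9 measured genes for microvilli and cilia, 4 were higher than in fibroblasts and 1 lower, with a median log2 ratio of 0.58. EZR, ezrin, which ties microvilli to actin, ran at 0, 578 and 2690.0 CPM in library 3 and 128, 2642 and 6761 CPM in library 4, and fibroblasts stood at 63.2 and 26.2 CPM. SLC9A3R1, its scaffold partner, was at 759 and 766 CPM against 10.9 and 6.59 CPM. PKD2, a cilium-linked cation channel, was higher (103 and 199.6 CPM against 44.6 and 64.8) and its partner PKD1 lower (13.4 and 27.0 CPM against 81.8 and 136).

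Of 17 matched genes for channels and transporters, 6 were measured. Of these 5 were higher and none lower, with a median log2 ratio of 3.26. In library 3, AQP1, SLC39A8, SLC4A4 and ATP1B1 passed the minimum only through the members, so the filter set their direction there. AQP1, the aquaporin water channel, ran at 0, 185 and 448 CPM over the members of library 3 and 119, 614 and 1657 CPM over those of library 4. Fibroblasts stood at 1.96 and 2.56 CPM and the duct barcodes of library 3 at 0.677 CPM. SLC39A8, a zinc and manganese importer, was at 114 and 518 CPM against 0.509 and 1.46 CPM, and SLC4A4, a sodium bicarbonate cotransporter, at 214 and 668 CPM against 24.4 and 27.4 CPM. ATP1B1, the beta subunit of the sodium pump, was higher too, at 158 and 372 CPM against 22.8 and 124 CPM. All 51 members of library 4 had a UMI of AQP1, and 24 of the 30 members of library 3 did.

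By its median, the list of interstitial matrix genes differed most in the other direction. Of 20 measured matrix genes outside those that chose the fibroblasts, none was higher and 15 were lower, with a median log2 ratio of -2.74. VCAN, the proteoglycan versican, had no UMI in any member of library 3 or 4, against 292 and 324 CPM in fibroblasts. MFAP5, a microfibril protein, was at 24.6 CPM in library 3, 81.8% of it from 1 member, and had no UMI in library 4, against 2702 and 2420.1 CPM. COL6A3 was at 75.9 and 24.7 CPM against 1829 and 1921 CPM and FBN1, fibrillin 1, at 118 and 59.9 against 1972 and 4045. COL6A3, FBN1 and MFAP5 were thus lower than in fibroblasts in both libraries, and 1 EPCAM member of library 3 held most of what the members had of MFAP5. Against duct barcodes of library 3, 15 of 18 measured matrix genes were higher in the members and 2 lower. COL6A3 and FBN1 were among the higher, although the rule for duct barcodes leaves out those rich in fibroblast genes.

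Collagen I chose the fibroblasts and is described without a count. COL1A1 ran at 1656, 5828 and 15949 CPM in the library 3 members and 29.6, 575 and 1702 CPM in library 4, against sums of 22472 and 20757 CPM in fibroblasts. Immune barcodes here and below are those with PTPRC and none of the markers of the rule. They did not have to pass the INS, PPY and enzyme limits, so they were not filtered like the members. INS stood at 11312 and 47655 CPM in them. Their COL1A1 stood at 1331 and 1532 CPM, and that of RNA outside cells at 3134 and 996 CPM. The summed members gave 5875 CPM (exact Poisson 95% interval 5653 to 6104) and 669 CPM (616 to 727). The sum of library 4 thus lay below that of the immune barcodes of its library, and that of library 3 above.

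The basement membrane list was divided between its members. Of 15 measured genes, 4 were higher than in fibroblasts and 10 lower, with a median log2 ratio of -2.06. Higher were the collagen IV chains COL4A5 (189.7 and 44.6 CPM in libraries 3 and 4 against 27.8 and 2.32) and COL4A6 (64.7 and 25.8 against 3.64 and 0.366). AGRN, the heparan sulfate proteoglycan agrin (141 and 221 CPM against 5.67 and 18.8), and NPNT, the integrin ligand nephronectin (44.6 and 69.3 against 0.727 and 1.59), were higher as well. The common collagen IV chains were lower, with COL4A1 at 136 and 135 CPM against 1767 and 1494 and COL4A2 at 103 and 75.2 against 613 and 561. LAMA2, a laminin chain, had no UMI in the members against 141 and 302 CPM, and NID1, nidogen 1, was at 24.6 and 2.35 CPM against 740.1 and 2034. The chains COL4A5 and COL4A6 and the chains COL4A1 and COL4A2 thus lay on opposite sides.

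Among proteases and their inhibitors, none of 10 measured genes was higher and 4 were lower. MMP2, gelatinase A, was at 11.2 CPM in library 3 with no UMI in library 4, against 288 and 433 CPM, and ADAMTS5, an aggrecanase, was at 13.4 and 1.17 CPM against 300.4 and 762. TIMP3, a matrix-bound inhibitor, was at 73.7 and 334 CPM against 388 and 998. Of 6 coagulation genes, 2 were lower (SERPINF1 and PROS1) and none higher.

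**Figure D3:**
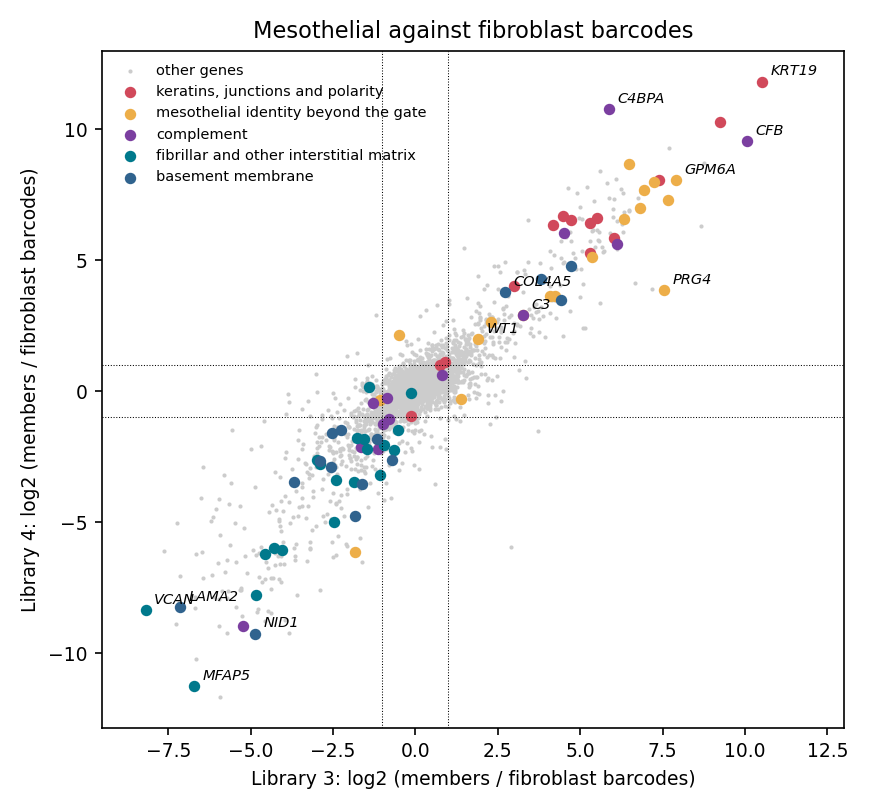
Log2 ratio of members to fibroblast barcodes in library 3 (x axis) and library 4 (y axis), each from summed CPM plus 1, for genes with at least 20 UMIs expected at the smaller sum; grey points are other genes, colours are 5 gene lists, and dotted lines mark ratios of 1 and -1. Keratins and mesothelial genes lie at the upper right, interstitial matrix genes at the lower left, and complement and basement membrane genes in both parts.

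Complement genes were divided as well. Of 13 measured genes, 5 were higher and 3 lower than in fibroblasts, with a median log2 ratio of -0.57. CFB, factor B of the alternative pathway, ran at 254, 1778 and 4086 CPM in library 3 members and 44.4, 2678 and 9028 CPM in library 4, against 0.655 and 2.56 CPM in fibroblasts. Its log2 ratios were 10.06 and 9.54, and no member of either library was below the fibroblast sum. C3, the central component, ran at 2345, 6958 and 22865 CPM and 281, 23716 and 47134 CPM, against sums of 706 and 2918 CPM. C2 was at 324 and 521 CPM against 3.64 and 9.64 CPM, and C4BPA, a chain of the inhibitor C4b-binding protein, at 62.5 and 1964 CPM against a single UMI in the fibroblasts of each library. CFI, factor I, was at 44.6 and 297 CPM against 1.02 and 3.54, a call that was lost without the EPCAM members.

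Some other complement genes were lower in the members than in fibroblasts. C7, of the membrane attack complex, was at 6.70 CPM in library 3 and without a UMI in library 4, against 289 and 493 CPM. C1S, a protease of the classical pathway, was at 169.6 and 304 CPM against 375 and 1408. Its partner C1R (93.8 and 794 CPM against 232 and 1081) and the inhibitor SERPING1 (382 and 801 against 663 and 1681) were not past the fold in both libraries. The members thus had more factor B, C2, C3 and C4b-binding protein and fibroblasts more C7 and C1S.

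Of 9 measured chemokine and inflammation genes, CXCL16, a membrane chemokine, was higher (147 and 349 CPM against 5.60 and 10.9) and 3 were lower. These were TNFAIP6, a hyaluronan-binding protein, with no UMI in any member of library 3 or 4 against 144 and 261 CPM, PTGES, prostaglandin E synthase, and IL33, an alarmin. Of 5 antigen presentation genes, 3 were higher, all of them immunoproteasome subunits. PSMB9 was at 75.9 and 35.2 CPM against 9.82 and 8.17, PSMB8 at 154 and 141 against 39.2 and 32.3 and PSMB10 at 158 and 191 against 41.8 and 43.6.

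Secreted signals also differed from fibroblasts. Of 17 measured genes of the WNT, BMP, TGF-beta, hedgehog, FGF and Notch pathways, 5 were higher and 6 lower, with a median log2 ratio of 0.50. RSPO1, an R-spondin that strengthens WNT signals, was at 121 and 183 CPM in libraries 3 and 4 against 0.509 and 0.61 CPM in fibroblasts. The related RSPO3 was lower, at 20.1 and 38.8 CPM against 242 and 111. WNT2B, a WNT ligand, was at 163 and 134 CPM against 39.8 and 34.9. The secreted WNT antagonists SFRP5 (73.7 and 402 CPM against 2.04 and 0.854) and SFRP2 (297 and 95.1 against 36.7 and 37.7) were higher, while SFRP1 was lower (22.3 CPM in library 3 and no UMI in library 4, against 123 and 74.3). LTBP2, a latent TGF-beta binding protein relative, was higher (49.1 and 119 CPM against 0.582 and 9.03) and LTBP1 lower (4.46 and 2.35 against 98.1 and 263).

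Paralogues therefore stood on opposite sides within the R-spondins, the SFRPs and the LTBPs. Among receptors and modulators, TGFBR3, betaglycan, was lower (87.1 and 166 CPM against 485 and 995), as was FSTL1 (217 and 269 against 1165 and 2015). FGFR1 was lower at 93.8 and 135 CPM against 207 and 279, a call that was lost without the EPCAM members.

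Of 22 measured growth factor, IGF axis and imprinted genes, 2 were higher and 10 lower, with a median log2 ratio of -1.01. MET, the receptor of hepatocyte growth factor, ran at 0, 126 and 551 CPM in library 3 and 0, 264 and 762 CPM in library 4, against sums of 1.24 and 0.732 CPM in fibroblasts. Its ligand gene HGF had no UMI in any member of either library and stood at 7.71 and 13.2 CPM in fibroblasts. PDGFA, a platelet-derived growth factor, was at 103 and 159 CPM against 6.47 and 7.44, and was higher. PDGFRB, a receptor of that growth factor family, was lower, at 4.46 and 1.17 CPM against 66.1 and 123.

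Imprinted and IGF genes were among the lower ones. DLK1, a Notch-related membrane protein, was at 35.7 CPM in library 3, 81.2% of it from 1 member, and had no UMI in library 4, against 2263 and 3261 CPM. IGF1 was at 31.2 and 1.17 CPM against 389 and 473. CDKN1C, a cyclin-dependent kinase inhibitor, was at 136 and 224 CPM against 778 and 1472, and PEG3 at 26.8 and 37.6 against 529 and 327.

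Enzymes of retinoic acid synthesis differed between the classes. ALDH1A2, the retinaldehyde dehydrogenase of embryonic mesoderm, ran at 0, 138 and 542 CPM in library 3 and 0, 167 and 688 CPM in library 4, against 0.291 and 0.366 CPM in fibroblasts. ALDH1A3 was at 8.93 and 2.35 CPM against 56.2 and 180.3 and ALDH1A1 at 6.70 and 99.8 against 90.4 and 361. Of the 6 measured genes of the retinoic acid list 1 was higher and 3 lower.

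Of 10 measured genes for hippo signalling and mesenchymal transition, 2 were higher and 3 lower. S100A4, a calcium-binding protein often used as a fibroblast marker, had the most UMIs of any gene in the library 3 members outside the EPCAM barcode. It ran at 2425, 12519.6 and 23798 CPM in library 3 and 0, 8045 and 11684 CPM in library 4, against sums of 32.2 and 93.1 CPM in fibroblasts and 4.07 CPM in duct barcodes of library 3. The transition factors ZEB2 (4.46 and 1.17 CPM against 126 and 200.2) and ZEB1 (33.5 and 35.2 against 68.7 and 108) were lower, the latter only with the EPCAM members included. S100A4 was thus far higher in the members than in fibroblasts, and immune barcodes also held it (5458 and 4719.8 CPM).

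The remaining lists gave few calls. FABP5, a fatty acid binding protein, was higher (507 and 37.6 CPM against 99.1 and 14.6) and LPL and APOE were lower among 6 lipid genes. MT3 and GPX3 were lower and none higher among 9 genes of oxidative defence and metal binding. Among 19 immediate early genes, which dissociation is known to induce, ATF3, HSPB1 and DUSP1 were higher and KLF4, SOCS3 and ZFP36 lower, with a median log2 ratio of -0.27. The call of DUSP1 was lost without the EPCAM members.

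Outside the lists, CLIC5 had the largest ratio to fibroblasts. CLIC5, a chloride channel protein linked to ezrin, was at 237 and 615 CPM in libraries 3 and 4 against 0.145 and 0 CPM in fibroblasts, with no UMI in the duct barcodes of library 3. PLAC8 was at 266 and 465 CPM against 1.46 and 1.83, and TGM2, tissue transglutaminase, at 203 and 224 against 3.78 and 0.488. OLR1, a scavenger receptor for oxidised lipoprotein, was at 114 and 217 CPM against 0 and 0.122, and BDNF, a neurotrophin, at 67.0 and 272 CPM with no UMI in fibroblasts of either library. BCAM, a laminin-binding adhesion molecule, was at 471 and 263 CPM against 8.88 and 2.93, ITGA6, an integrin subunit for laminin, at 91.5 and 113 against 0.946 and 0.244, and HTR1B, a serotonin receptor, at 69.2 and 106 against 0 and 1.46. CDH6, a cadherin, and RHPN2, CCDC3, SLC1A1, LMO7 and MPZL2 were also among the 25 with the largest ratios.

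In the other direction ASPN, asporin, had the largest ratio. It had no UMI in any member of library 3 or 4, against 153 and 475 CPM. PI16 was at 4.46 and 1.17 CPM against 552 and 2562, DPT, dermatopontin, at 13.4 and 4.70 against 900.0 and 2862, and CLEC3B, tetranectin, at 179 and 21.1 against 9515 and 13204. ISLR and FBLN5, fibulin 5, followed with 2.23 and 1.17 and with 2.23 and 2.35 CPM. Of the called genes, 26 of those higher and 100 of those lower carry only a LOC symbol. The brightest of these, LOC102183754, was at 529 and 664 CPM against 0.218 and 0.61 and is protein-coding, and its neighbour in the goat RefSeq annotation (assembly ARS1.2) is DTX2. It was chosen after its values were seen and is given by its symbol.

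Members of library 4 were then set against those of library 3, which compares 2 libraries and not conditions. Of 5371 genes, 1040 (19.4%) were higher and 472 (8.79%) lower in library 4, and the median log2 ratio of all genes was 0.23. Centred on that median the split was 761 higher and 718 lower. Without the EPCAM members, 918 of 4970 (18.5%) were higher and 504 (10.1%) lower, with 836 and 434 genes in common. Over the 3773 genes with 20 UMIs expected at the smaller sum, 549 (14.6%) were higher and 504 (13.4%) lower, and the counts below are over these. From here on, summed levels and ratios of the members also leave out the EPCAM members, unless said otherwise. Lowest, median and highest levels and counts of members with a UMI are over all members. Fibroblasts of the same 2 libraries gave 812 of 12074 genes (6.73%) higher and 884 (7.32%) lower, or 812 of 11569 (7.02%) and 789 (6.82%) by the rule of the smaller sum, and their ratios stand beside those of the members. The total of the members is smaller than that of the fibroblasts, so these percentages have different counting errors.

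Of 22 matched cell cycle genes 11 were measured, and these were all lower in library 4, with a median log2 ratio of -4.69. It became -3.57 when genes without a UMI in library 4 were set to the limit that 3 counts allow. The genes named below passed the minimum only through library 3, so the filter set their direction. MCM5, a replication helicase subunit, was at 199 and 3.83 CPM in libraries 3 and 4, and PCNA, the sliding clamp, at 213 and 25.5. UHRF1, a maintenance methylation factor, was at 101 CPM in library 3 with no UMI in library 4, at least 26.3-fold lower, and RRM2 was at least 22.6-fold and TOP2A at least 14.7-fold lower. In fibroblasts 15 of 20 genes were lower, with a median of -1.99.

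By barcodes, 4 of 30 members of library 3 (13.3%, exact interval 3.76 to 30.7%) had UMIs of 3 or more of 8 cell cycle genes, and 0 of 51 in library 4 (interval up to 6.98%). In fibroblasts of library 3 it was 31 of 2107 (1.47%) and in all other barcodes 10.6%. The members' higher depth acts on this share, and when each barcode was thinned to 3000 UMIs 1 of 30 members and 26 of 2107 fibroblast barcodes of library 3 remained. RNA outside cells also carried these genes in library 3 (TOP2A at 90.7 CPM) more than in library 4 (10.3 CPM), and its part in the result was not tested.

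Immediate early genes went the other way, with 17 of 20 higher in library 4 and a median of 2.14. FOS ran at 0, 1043 and 5117 CPM over the library 3 members and 94.4, 3849.5 and 11845 CPM over those of library 4, and the ranges overlapped. JUN was at 749 and 3270.4 CPM, EGR1 at 346 and 1537 and BTG2 at 44.5 and 511. Fibroblasts shared it, with 19 of 23 higher and a median of 1.78. Handling of the tissue and the state of the cells cannot be told apart here.

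Complement genes were higher in library 4, with 6 of 12 called and none lower, and here too fibroblasts moved along (10 of 16 higher). C3 was at 6998 and 23593 CPM in the members of libraries 3 and 4 and C1R at 91.3 and 859.7, log2 ratios of 1.75 and 3.22 beside 2.05 and 2.22 in fibroblasts. C4BPA ran at 0, 0 and 331 CPM over all members of library 3 and 29.6, 2336 and 5201 CPM over those of library 4. Its log2 ratio without the EPCAM members was 5.00. With a single UMI in the fibroblasts of each library, its change there could not be measured. The sums over all members were 62.5 CPM (exact Poisson 95% interval 41.5 to 90.3) and 1964 CPM (1870.5 to 2059.9). It had a UMI in 11 of 30 and 51 of 51 members. After thinning to 3000 UMIs these shares were 16.7% and 98.0%, against 0% and 0.193% of immune barcodes, and RNA outside cells held 0 and 12.6 CPM.

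Channel and transporter genes were higher in library 4 in the members but not in the fibroblasts as a list. Of 17 matched genes 7 were measured, and 6 of them were higher, with a median of 1.78. In fibroblasts 1 of 8 was higher and 1 lower. AQP1 was at 180.2 and 619.9 CPM, SLC39A8 at 115 and 561, SLC4A4 at 215 and 719, CA9, a carbonic anhydrase, at 25.7 and 151 and SLC16A1, a lactate transporter, at 105 and 575. The AQP1 ratio was 1.78 beside 0.27 in fibroblasts, and that of SLC16A1 2.44 beside -0.46. No test of the difference between the classes was possible with 1 library on each side.

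Matrix genes were divided between the libraries. Of 20 measured, 3 were higher and 6 lower in library 4, with a median of -0.39, while in fibroblasts 5 of 23 were higher and 1 lower. COL1A1 was at 5826 and 724 CPM in the members, COL1A2 at 4059.6 and 686, COL3A1 at 4850.5 and 1576 and POSTN, periostin, at 278 and 11.5. POSTN was also the 1 lower gene in fibroblasts, and MFAP4 and THBS1 were higher in both classes. The COL1A1 ratio was -3.01 beside -0.11 in fibroblasts, and RNA outside cells carried 3134 and 996 CPM, so its level moved in the same direction as the members'. The part of that RNA was not tested. CCDC80, a matrix protein, went the other way at 1425 and 5415 CPM, and so did MGP, matrix Gla protein, at 5541 and 19862 CPM, whose ranges over members did not overlap apart from the EPCAM member (1238, 4817 and 8179 and 14.8, 19138 and 33699.8 CPM).

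**Figure D4:**
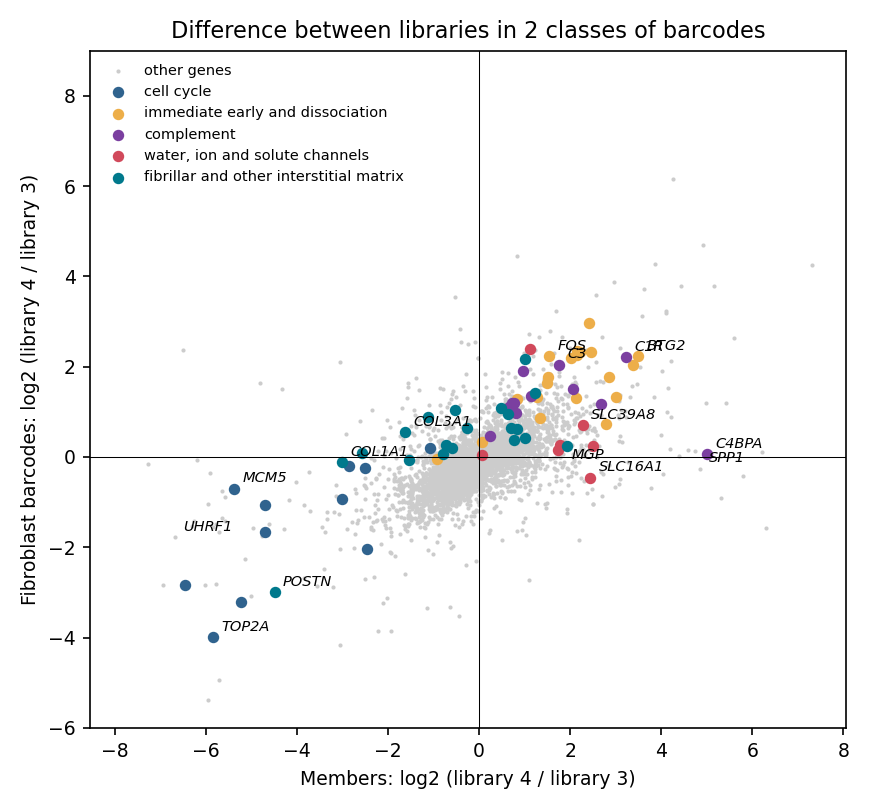
Log2 ratio of library 4 to library 3 in the members without the EPCAM barcodes (x axis) and in fibroblast barcodes (y axis), from summed CPM plus 1, for genes with at least 20 UMIs expected at the smaller sum; grey points are other genes and colours 5 gene lists. Cell cycle genes lie left, immediate early and complement genes at the upper right, while COL1A1 and MGP lie near the horizontal line at 0; C4BPA rests on 1 fibroblast UMI in each library.

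By count of calls, epithelial genes were near the shares of all genes. KRT8 was lower in library 4 (7455 and 3429 CPM in libraries 3 and 4) and so was KRT18 (1079 and 202), whereas KRT7 (56.2 and 165), CLDN3 (56.2 and 144) and CDH1 (28.1 and 109.7) were higher. Of the 16 genes, 3 were higher and 3 lower, beside 14.6% and 13.4% of all measured genes. In fibroblasts 1 of 14 was higher and 5 lower. ITGB4, the integrin of hemidesmosomes, was higher at 2.34 and 131 CPM, and LAMB3, a chain of the laminin it binds, at 7.02 and 66.3 CPM.

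Of 21 mesothelial identity genes, 9 were higher and none lower in library 4, with a median of 0.71 beside 0.61 in fibroblasts. PKHD1L1 (91.3 and 489.8 CPM), TM4SF1 (246 and 802), GPM6A (983 and 2575) and HAS1, hyaluronan synthase 1 (11.7 and 58.7), were among these. WT1 (143 and 101 CPM) and MSLN (613 and 676) differed by less than the fold.

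Among signals, 9 of 18 pathway genes were higher and 3 lower, with a median of 0.94, and in fibroblasts 10 of 35 were higher and 3 lower. FST, the activin antagonist follistatin, was at 18.7 and 270.4 CPM in libraries 3 and 4 and SFRP5 at 77.2 and 436. HHIP, a hedgehog antagonist, was at 88.9 CPM in library 3 and had no UMI in library 4, at least 23.2-fold lower, although fibroblasts had more of it in library 4 (10.8 and 60.6 CPM). BMP7 was at 84.2 and 10.2 CPM. IGFBP2, an IGF-binding protein, was at 72.5 CPM in library 3 with no UMI in library 4. ALDH1A1, by contrast, was higher in library 4 (7.02 and 91.8 CPM), as it was in fibroblasts (90.4 and 361).

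Inflammation genes were higher in 7 of 9 cases and lower in none, and in fibroblasts in 8 of 22. PTGIS, prostacyclin synthase, was at 44.5 and 416 CPM, CXCL12 at 95.9 and 435 and IL6ST, a cytokine receptor chain, at 222 and 626. THBD, thrombomodulin, was at 4.68 and 90.6 CPM and PROCR, the protein C receptor, at 32.8 and 77.8. PTGIS and THBD were also higher in fibroblasts of library 4, whereas CXCL12, IL6ST and PROCR were not called there. Of 4 lipid genes 3 were lower, FABP5 from 526 to 35.7 CPM among them. In fibroblasts 8 of 17 lipid genes were lower, FABP5 among them, and 3 higher, APOA1 among them. In the members, APOA1 was lower without the EPCAM barcodes (386 and 12.8 CPM). With them its level in library 4 was 881 CPM, nearly all from the EPCAM barcode, and the direction turned.

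Genes outside the lists with the largest ratios included ENHO, a secreted peptide gene, at 77.8 CPM in library 4 with no UMI in library 3, at least 11.1-fold higher, SPP1, osteopontin, at 7.02 and 231 CPM in libraries 3 and 4, THY1 at 2.34 and 105 and CCND1, cyclin D1, at 9.36 and 147. SPP1 was uneven, with a UMI in 32 of 51 members, a median of 64.7 and a highest level of 2017 CPM. In the lower direction UCHL1, a ubiquitin hydrolase, was at 74.9 CPM in library 3 and without a UMI in library 4, at least 19.6-fold lower.

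KDR, the VEGF receptor 2 of endothelium, had a UMI in 5 of 30 and 32 of 51 members and stood at 13.4 and 116 CPM over all members. It was chosen after its values were seen, as a marker of another cell type that was not low. In immune barcodes, thinned to 3000 UMIs, 0% and 0.386% had it, against 3.33% and 35.3% of members thinned alike. PECAM1 is 0 by the rule, and of the other endothelial markers VWF, PLVAP and FLT1 had no UMI in the members of library 3 or 4. CDH5, the remaining marker, had none in library 3 but was detected in library 4. The 6 markers summed to 117 CPM there over all members, nearly all of it KDR.

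Within a library the members varied among themselves. Over 29 members of library 3 and 50 of library 4, KRT19 levels went with those of KRT8 (Pearson r 0.87 and 0.31) and KRT18 (0.78 and 0.34). With COL3A1 r was -0.44 and -0.20 and with PTN, a secreted growth factor, -0.50 and -0.30. Other partners did not repeat between the libraries, with COL1A1 at -0.45 and -0.004 and GPM6A at -0.36 and 0.19. MSLN was at -0.29 and 0.15 and PRG4 at -0.12 and 0.20. These describe barcodes of 1 library each, which share its depth and its RNA outside cells, and are the extremes among 560 genes or named partners. KRT19 against UMIs per barcode gave -0.13 and 0.06.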

How the data were processed

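RNA of single cells from goat pancreas was counted with the 10x 3′ v3 chemistry. The deposited matrix holds UMI counts per gene and barcode for 4 libraries together, and per the file headers the software that wrote it was Cell Ranger, version 5.0.1. Versions listed per the submitters' processing notes are 5.01 for bcl2fastq, 3.1.0 for Cell Ranger and 3.1.1 for Seurat. The genome build is not given in the sources used here. Total counts per library were 43297855, 82817057, 65937591 and 55223412 over 27137 genes, of which 27103 matched goat RefSeq by symbol or ID.

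Members, fibroblast and duct barcodes were selected by the rules given in the report, with Python (numpy 2.4.6, scipy 1.17.1, scanpy 1.11.5 for Scrublet). Counts were summed per class and library and scaled to CPM, and log2 ratios took a pseudocount of 1 CPM. A class needed 20 barcodes, and a call needed 20 UMIs and a ratio of 1 or -1. Intervals are exact (Poisson or Clopper-Pearson, 95%). The call rule was tested on simulated counts. No test between groups was run, because no label ties a library to an animal; the planned edgeR comparison of ages was therefore left out.

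Named genes are those past the fold on 21 gene lists (488 of 532 entries matched), about 4 a list, and outside the lists the 25 (fibroblasts) or 15 (duct, libraries) with the largest ratios in each direction. The members and lists were chosen with earlier results of these data known. Alternatives changed the UMI minimum, the markers, the pseudocount, the centring, the count minimum, the mean over barcodes and the doublet filter. The limit on EPCAM, the lifting of the limits on other cell types and the rule of 20 UMIs expected at the smaller sum were chosen after seeing the data. Some genes of the lists are counted but not reported here by name.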

Additional observations from a re-analysis of the deposited data

How the results depend on the processing

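With at least 50 UMIs for a call, 146 genes were higher than in fibroblasts, 230 higher and 1189 lower than in duct barcodes, 217 higher than in all other barcodes, and 485 higher and 217 lower in library 4 than in library 3. With no minimum these were 1269, 1956 and 4475, 1048, and 3802 and 2324. A pseudocount of 10 CPM left 550 genes lower than in fibroblasts and 412 lower than in all other barcodes. Centring on the median of all genes gave 892 higher and 1408 lower than in duct barcodes, 784 higher than in all other barcodes and 718 lower between libraries. Requiring 20 UMIs expected at the smaller sum left 393, 903 and 197 genes lower than in fibroblasts, duct and all other barcodes, and 586 higher between libraries. Leaving out 1 library gave 592 to 1069 genes higher and 1681 to 2440 lower than in fibroblasts, and 894 to 1237 higher and 3230 to 3312 lower than in all other barcodes, since 1 library then sufficed for a call. All 3 listed markers gave 759 higher and 2025 lower than in fibroblasts, from library 4 alone, and were not run between libraries for want of 20 members in library 3.

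The share of members in library 4 was 0.855% at a UMI minimum of 1000, 0.781% with all 3 listed markers, 0.931% with MSLN, UPK3B and LRRN4 only, and 2.10% without limits on other cell types. In library 3 it was 0.290% with all 3 listed markers. Named genes mostly kept their call. Of 152 named against fibroblasts 30 lost it at 50 UMIs, 7 with centring and at most 5 under any other alternative. Of 168 named against duct barcodes 25 lost it at 50 UMIs and 10 with centring, and of 129 between libraries 37 and 9. APOA1 turned between libraries, to a log2 ratio of -0.88 as a mean over barcodes of CPM and -4.81 without the EPCAM members, from 1.26. The members' 447998 and 851537 UMIs limit genes of low level, and for these a difference was not detectable at this depth. No paired analysis was possible because the library numbers in the barcodes carry no replicate number or sample.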
